A study of Mus musculus with 12 samples.

Results

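Genes that encode sensors of bacterial and viral products, or the adaptor they signal through, were followed in mouse samples labelled as proximal colonic mucosa. They are the 10 genes Tlr1, Tlr2, Tlr3, Tlr4, Tlr5, Tlr7, Tlr9, Nod1, Nod2 and Myd88, found by matching their symbols to the 38924 Ensembl gene identifiers of the count tables. All 10 reached 10 counts in 3 or more mice and so entered the tests, with 20311 genes in all. RNA sequencing counts were available for 12 female C57BL/6 mice aged 6 weeks, 6 of genotype APC Min/+ and 6 wild type (WT), 1 library a mouse. APC Min/+ mice carry 1 copy of the Min allele, a germ-line nonsense mutation of the tumour suppressor Apc, in all cells rather than in the mucosa alone, and the study sampled them before polyps were visible. The labels give no treatment for either group. The study kept the 2 genotypes in separate cages and received its mice in 3 shipments, which the labels do not assign to mice, so cage and genotype cannot be told apart and shipment was not tested.

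Toll-like receptors are membrane proteins with a leucine-rich ectodomain that binds microbial molecules. Those at the cell surface bind lipopeptides, lipopolysaccharide and flagellin, and those in endosomes bind nucleic acids. Nod1 and Nod2 are cytosolic and bind fragments of peptidoglycan that enter the cell. Both routes end in NF-kB and interferon regulatory factors, and in the colon they are used by epithelial cells, macrophages, dendritic cells and lymphocytes, where they set the response to resident bacteria. In bulk tissue, fewer cells of a type and less RNA per cell cannot be told apart.

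Each library held between 50313805 and 197914821 counted reads, and 3 counts were worth 0.0152 to 0.0596 counts per 1000000 counted reads (CPM). CPM values below are scaled by trimmed-mean (TMM) normalization factors, which ran from 0.906 to 1.098. The APC Min/+ libraries M10_2 and M13_1 stood apart from the other 10 in genes of position along the gut, although the labels give all 12 the same tissue. Hoxb13, a homeobox gene of the posterior body axis, reached 377.7 CPM in mouse M10_2 and 274.7 CPM in mouse M13_1, against 0 to 0.744 CPM in the other 10 mice. Hoxa13 was at 76.5 and 61.8 CPM in these 2 mice against 0.921 to 2.75 CPM, and Hoxd13 at 12.4 and 208.9 CPM against 0.0553 to 0.533 CPM. Hoxb6 went the other way, at 1.57 and 3.18 CPM against 55.5 to 115.7 CPM, as did Hoxb8, at 0.465 and 0.861 CPM against 16.6 to 28.3 CPM. Cdx2, an intestinal homeobox gene, was at 49.9 and 20.6 CPM against 66.6 to 250.6 CPM. Because both mice are APC Min/+, the genotype difference of each member is given with and without them.

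The genes lie on 8 chromosomes of GRCm38. Tlr1 (ENSMUSG00000044827.6) is at chr5:64924679-64933563 on the minus strand, Tlr2 (ENSMUSG00000027995.9) at chr3:83836272-83841767 on the minus strand, Tlr3 (ENSMUSG00000031639.5) at chr8:45395665-45411080 on the minus strand, Tlr4 (ENSMUSG00000039005.7) at chr4:66827584-66930284 on the plus strand and Tlr5 (ENSMUSG00000079164.3) at chr1:182954788-182976044 on the plus strand. Tlr7 (ENSMUSG00000044583.7) is at chrX:167304929-167330558 on the minus strand, Tlr9 (ENSMUSG00000045322.9) at chr9:106222598-106226883 on the plus strand, Nod1 (ENSMUSG00000038058.8) at chr6:54923949-54972612 on the minus strand, Nod2 (ENSMUSG00000055994.9) at chr8:88647315-88688474 on the plus strand and Myd88 (ENSMUSG00000032508.8) at chr9:119335934-119341411 on the minus strand. Part of the reads of 3 members cannot be assigned with certainty. Of the 3021 stretches of 100 bases in the Tlr1 transcripts, 259 (8.57%) also occur in Tlr6, its neighbour on the same chromosome and close relative. Myd88 overlaps Acaa1a on the opposite strand, with 125 of 1926 such stretches (6.49%) in common, and also overlaps Slc22a14, and the more abundant of these 2 neighbours reached 102.5 CPM. Tlr3 had 46 of 5256 stretches (0.875%) in common with the gene model Gm45542, and the other members had none.

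Promoter sequence was printed for the 5 members that lay on 1 side of the other 10 mice in both M10_2 and M13_1, since these carry the pattern described below. The sequences come from RefSeq windows of GRCm38.p6 that run from 250 bases before to 50 bases after each transcription start, which covered 8 of the 10 members and not Tlr4 or Tlr7. Only bases before both the RefSeq start and the 5′ end of the gene are shown, 5′ to 3′ on its strand, with CpG dinucleotides in capitals. They are chr5:64933564-64933808 for Tlr1, chr3:83841768-83841858 for Tlr2, chr1:182954538-182954787 for Tlr5, chr6:54972613-54972862 for Nod1 and chr8:88647097-88647314 for Nod2.
Tlr1: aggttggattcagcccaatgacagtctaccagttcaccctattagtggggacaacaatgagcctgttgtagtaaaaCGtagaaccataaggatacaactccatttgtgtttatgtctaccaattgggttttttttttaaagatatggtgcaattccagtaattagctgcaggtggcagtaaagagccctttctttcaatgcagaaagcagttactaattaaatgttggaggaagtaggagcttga
Tlr2: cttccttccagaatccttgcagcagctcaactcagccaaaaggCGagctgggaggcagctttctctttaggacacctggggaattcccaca
Tlr5: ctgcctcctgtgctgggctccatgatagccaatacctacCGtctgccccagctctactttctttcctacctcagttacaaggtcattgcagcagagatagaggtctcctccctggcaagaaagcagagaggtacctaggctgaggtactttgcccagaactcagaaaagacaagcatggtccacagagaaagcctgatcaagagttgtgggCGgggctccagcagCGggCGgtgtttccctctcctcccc
Nod1: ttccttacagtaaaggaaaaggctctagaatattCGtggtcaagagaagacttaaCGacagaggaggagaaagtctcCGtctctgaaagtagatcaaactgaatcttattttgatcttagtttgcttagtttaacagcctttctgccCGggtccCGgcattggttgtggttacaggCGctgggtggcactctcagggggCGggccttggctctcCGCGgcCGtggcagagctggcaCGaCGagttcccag
Nod2: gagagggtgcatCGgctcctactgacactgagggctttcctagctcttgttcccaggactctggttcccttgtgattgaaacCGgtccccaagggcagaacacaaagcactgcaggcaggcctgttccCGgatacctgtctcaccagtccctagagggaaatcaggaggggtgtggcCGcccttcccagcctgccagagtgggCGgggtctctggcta

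The stretch before Nod1 held 12 CpG dinucleotides in 250 bases, against 1 in the 245 bases before Tlr1. The other stretches held 1 in 91 bases for Tlr2, 4 in 250 bases for Tlr5 and 5 in 218 bases for Nod2. Over the whole 300-base windows, CpG counts were 15 for Nod1, 13 for Myd88, 11 for Tlr2, 10 for Tlr3, 9 for Nod2, 8 for Tlr5, 3 for Tlr1 and 0 for Tlr9, beside a median of 7 over all 32851 windows. The letter patterns below were searched on both strands of the windows. CAATAAA and CCATAAA, forms bound by posterior Hox proteins, were in 4.60% and 2.75% of all windows and in 0 of the 8 members. GGGANTTCC, an NF-kB form, was in 1.68% of all windows and in 1 member, Tlr2, where its 2 overlapping matches, 1 on each strand, lie at the end of the stretch shown. GAAANNGAA, part of an interferon-stimulated element, was in 8.56% of all windows and in 1 member, Myd88. The RefSeq starts of Myd88 and Tlr3 lie 1393 and 700 bases inside the genes as positioned above. Their windows, also in the CpG counts, are thus within the gene and not before that 5′ end. For Tlr2, Nod2 and Tlr1 the RefSeq starts lie 159, 32 and 5 bases inside the gene. Of the 11 CpG dinucleotides in the Tlr2 window, 1 lies in the 91 bases shown before that end. A match describes letters only, and no match says nothing of the factors.

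Per length, in RPKM (CPM divided by the gene's length in kilobases), the members covered a wide range of levels. Tlr1 was highest, with a median of 33.3 RPKM over the 12 mice, followed by Tlr3 at 14.0, Tlr2 at 12.2 and Myd88 at 12.1 RPKM. Tlr5 at 5.90, Tlr4 at 4.08 and Nod1 at 3.64 RPKM formed a middle range, and Nod2 at 0.912, Tlr7 at 0.820 and Tlr9 at 0.171 RPKM were lowest. The order of 4 neighbouring pairs held in 12 of 12 mice with a mean log2 ratio above its SD. They were Tlr1 over Tlr3 (1.30 ± 0.32, SD, n = 12), Myd88 over Tlr5 (1.24 ± 0.61), Nod1 over Nod2 (2.13 ± 1.02) and Tlr7 over Tlr9 (2.26 ± 0.98). The other neighbours did not differ beyond their spread: Tlr3 exceeded Tlr2 in 7 of 12 mice, Tlr2 exceeded Myd88 in 5, Tlr5 exceeded Tlr4 in 9, Tlr4 exceeded Nod1 in 9 and Nod2 exceeded Tlr7 in 6. M10_2 and M13_1 were among the mice out of order for Tlr2 and Myd88, for Tlr5 and Tlr4 and for Nod2 and Tlr7.

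The first comparison asked whether APC Min/+ tissue differs from WT in these genes. None of the 10 passed an adjusted p of 0.05 with a 2-fold difference by edgeR (quasi-likelihood F-test, Benjamini-Hochberg adjusted), and 0% of the 20311 genes tested did. At an unadjusted p under 0.05 the count was 0 of 10 members, against 5.27% of all genes (1071 genes). The 2 genotypes overlapped in CPM for every one of the 10 members, where 0.0443% of all genes lay wholly above WT in APC Min/+ and 0.0739% wholly below. There were 4 members with a positive and 6 with a negative log2 fold change, APC Min/+ minus WT, and their median was -0.09, beside -0.01 over all genes tested. DESeq2 called 27 of all genes, the edgeR likelihood ratio test 15 and limma-voom 0, and none of these was a member.

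**Figure D1:**
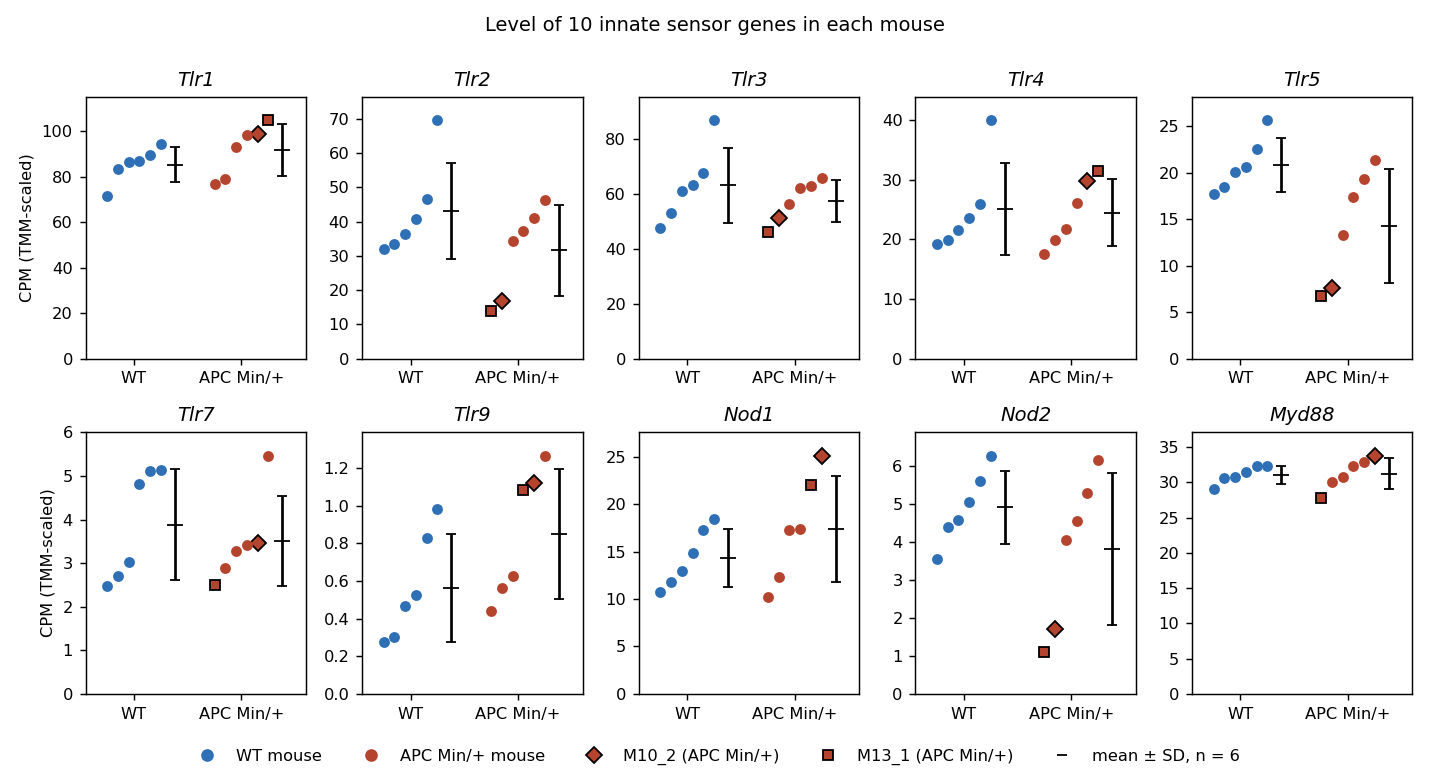
TMM-scaled CPM (vertical axis, from 0) of each of the 10 genes in 6 WT and 6 APC Min/+ mice, sorted by value, with the mean ± SD (n = 6) beside each group and the mice M10_2 (diamond) and M13_1 (square) marked. The genotypes overlap in every panel, and the 2 marked mice lie below all others for Tlr2, Tlr5 and Nod2 and above all others for Tlr1 and Nod1.

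Among the surface receptors, Tlr5, the receptor of flagellin, had the lowest unadjusted p of the 10. It was at 6.67, 15.3 and 21.4 CPM (lowest, median and highest) in APC Min/+ mice and at 17.7, 20.3 and 25.6 CPM in WT. The 2 lowest values were those of M13_1 (6.67 CPM) and M10_2 (7.62 CPM), M2_A (13.2 CPM) and M20_1 (17.3 CPM) were also below the lowest WT mouse, and the other 2 APC Min/+ mice lay within the WT range. Means were 14.3 ± 6.14 CPM in APC Min/+ and 20.8 ± 2.90 CPM in WT (SD, n = 6 each). The log2 fold change was -0.55 (SE 0.26), with an unadjusted p of 0.0561 and an adjusted p of 0.908 by edgeR (quasi-likelihood F-test, Benjamini-Hochberg adjusted). The exact two-sided permutation test of mean log2 CPM gave p = 0.0433, unadjusted for the 10 members and with 0.0022 as the smallest value it can give. Without M10_2 and M13_1 the log2 fold change was -0.23 (SE 0.15, unadjusted p = 0.157) and the exact permutation p was 0.1905 (4 against 6 mice).

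Tlr2 pairs with Tlr1 or Tlr6 to bind bacterial lipopeptides. Its values were 13.9, 35.7 and 46.3 CPM in APC Min/+ mice and 32.1, 38.6 and 69.5 CPM in WT mice. M13_1 (13.9 CPM) and M10_2 (16.9 CPM) were lowest, the WT mouse M17_1 was highest, and the other 4 APC Min/+ mice, at 34.3 to 46.3 CPM, lay within the WT range. The log2 fold change was -0.45 (SE 0.29, adjusted p = 0.908, edgeR with Benjamini-Hochberg adjustment), and -0.26 without M17_1 and -0.12 without M10_2 and M13_1. Its partner Tlr1 was at 76.5, 95.6 and 104.7 CPM in APC Min/+ mice and at 71.5, 86.6 and 94.4 CPM in WT mice. The 3 highest values were all of APC Min/+ mice, M13_1, M10_2 (98.7 CPM) and M2_A (98.1 CPM), but M18_2b and M20_1, also APC Min/+, were lower than all WT mice except M17_2. The log2 fold change was 0.10 (SE 0.10, adjusted p = 0.91, edgeR with Benjamini-Hochberg adjustment) and 0.02 (SE 0.11) without M10_2 and M13_1.

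Tlr4, the receptor of lipopolysaccharide, overlapped widely between the genotypes, at 17.5, 23.9 and 31.5 CPM in APC Min/+ mice and 19.2, 22.6 and 39.9 CPM in WT mice. The highest value was that of the WT mouse M17_1, followed by M13_1 and M10_2 (29.8 CPM). The log2 fold change was -0.04 (SE 0.20, adjusted p = 0.978, edgeR with Benjamini-Hochberg adjustment), but its sign rested on single mice: it was 0.15 without M17_1 and -0.23 without both M10_2 and M13_1.

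The endosomal receptors followed no common direction. Tlr3, which binds double-stranded RNA, was at 46.1, 59.4 and 65.7 CPM in APC Min/+ mice and 47.4, 62.1 and 86.7 CPM in WT mice (log2 fold change -0.14, SE 0.14, and -0.03, SE 0.15, without M10_2 and M13_1). Tlr7, which binds single-stranded RNA, was at 2.50, 3.35 and 5.46 CPM and 2.47, 3.92 and 5.15 CPM (log2 fold change -0.15, SE 0.24, and -0.05, SE 0.27, without them). Tlr9, which binds unmethylated CpG DNA, was at 0.441, 0.854 and 1.26 CPM in APC Min/+ mice and 0.276, 0.494 and 0.981 CPM in WT mice, from 28 to 222 counts a library. For Tlr9 the log2 fold change of 0.60 was the largest in size of the 10 and also had the largest error (SE 0.36, unadjusted p = 0.125, exact permutation p = 0.136 with 6 mice a group). The high Tlr9 mice were of both genotypes: M18_2b, M10_2 and M13_1 led, and the WT mice M16_1 and M19_1 (0.827 CPM) came next. Without the WT mouse M16_1 the log2 fold change was 0.83 with an unadjusted p of 0.0451, and without M10_2 and M13_1 it was 0.36 (SE 0.40). Tlr3 was lowest in M13_1 and highest in M17_1, and Tlr7 lowest in the WT mouse M18_b and highest in M2_A, so that the ends of their ranges fell in different mice.

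Nod1 and Nod2, the sensors of diaminopimelic acid peptides and muramyl dipeptide, had opposite signs. Nod1 was at 10.23, 17.3 and 25.1 CPM in APC Min/+ mice and 10.7, 13.9 and 18.4 CPM in WT mice, and M10_2 and M13_1 (22.1 CPM) were the only mice above 18.4 CPM. Nod2 was at 1.12, 4.31 and 6.18 CPM in APC Min/+ mice and 3.56, 4.83 and 6.28 CPM in WT mice, and M13_1 and M10_2 (1.72 CPM) were the only mice below 3.56 CPM. The other 4 APC Min/+ mice lay at 10.23 to 17.4 CPM for Nod1 and at 4.07 to 6.18 CPM for Nod2, over most of the WT range of each. The log2 fold change was 0.28 (SE 0.21) for Nod1 and -0.36 (SE 0.35) for Nod2, both with an adjusted p of 0.91 in edgeR with Benjamini-Hochberg adjustment. Without M10_2 and M13_1 both signs turned, to -0.0039 (SE 0.19) for Nod1 and 0.03 (SE 0.18) for Nod2.

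Myd88, the adaptor of every Toll-like receptor named here except Tlr3, varied least of the 10. It was at 27.8, 31.5 and 33.8 CPM in APC Min/+ mice and 29.1, 31.1 and 32.4 CPM in WT mice, a coefficient of variation of 6.99% and 4.03%. The other 9 members had coefficients between 9.04% (Tlr1, WT) and 52.4% (Nod2, APC Min/+). M10_2 held the highest and M13_1 the lowest Myd88 value, and the log2 fold change was 0.01 (SE 0.07, adjusted p = 0.985, edgeR with Benjamini-Hochberg adjustment) and 0.02 (SE 0.08) without both.

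**Figure D2:**
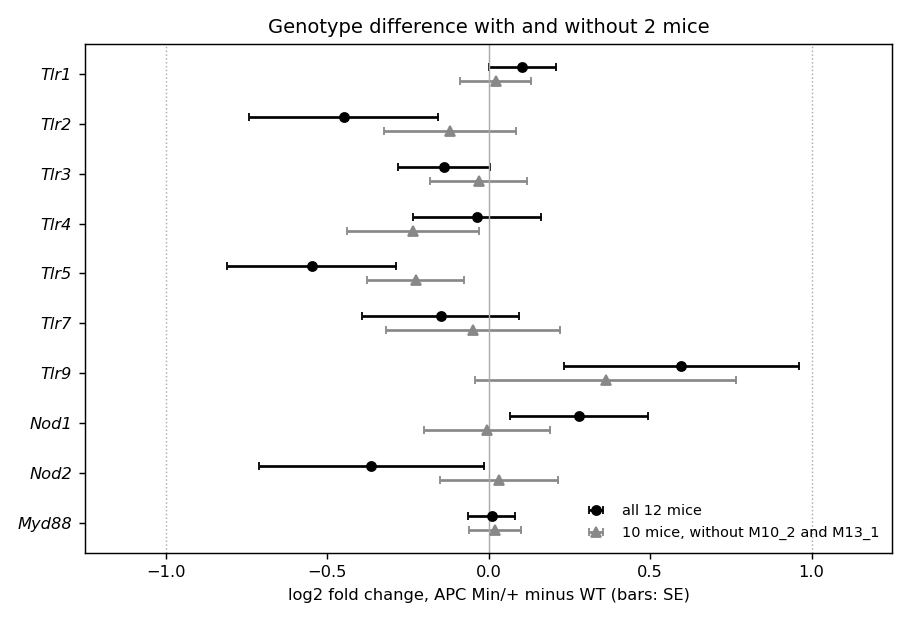
log2 fold change (APC Min/+ minus WT, horizontal axis, bars SE) of each gene from edgeR over all 12 mice (circles) and over the 10 mice without M10_2 and M13_1 (triangles), with dotted lines at a 2-fold difference. For 8 of the 10 genes the 10-mouse value is closer to 0, the exceptions being Tlr4 and Myd88.

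Leaving out M10_2 and M13_1 brought the log2 fold change closer to 0 for 8 of the 10 members, all but Tlr4 and Myd88. No member then had an unadjusted p under 0.05, against 1.59% of the 19978 genes tested in those 10 mice (317 genes). With Hoxb13 as a covariate over all 12 mice, no member passed that mark either, against 1.69% of all genes (343 genes).

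The second comparison set the members against Hoxb13. Since Hoxb13 splits the mice into 2 and 10 with nothing between, no slope of a member on Hoxb13 was tested over all 12. Hoxb13 entered a fit of all 12 only as the covariate above, where it mainly separates M10_2 and M13_1 from the others. That fit is therefore close to leaving these mice out. M10_2 and M13_1 are given beside the range of the others with no test. Both mice lay below the other 10 for 3 members. Tlr5 was 0.387 and 0.339 times the median of the other 10 mice in M10_2 and M13_1, Tlr2 0.434 and 0.358 times, and Nod2 0.356 and 0.231 times. Nod2 in M13_1 was the furthest of any member in any mouse. For 2 members both mice lay above: Nod1 at 1.80 and 1.59 times the median, and Tlr1 at 1.14 and 1.21 times, which is only just outside the range of 71.5 to 98.1 CPM. Among all genes tested, 11.8% had both mice above and 12.2% both below the other 10, so that such positions were common in these 2 libraries.

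The other 5 members were not outside on 1 side in both mice. Tlr9 was 2.07 and 1.995 times the median, but M18_2b, with Hoxb13 at 0.241 CPM, was higher than either. Tlr4 was 1.37 and 1.45 times the median and below M17_1, where no count of Hoxb13 was found. Tlr3 was 0.817 and 0.737 times the median, Tlr7 1.04 and 0.746 times, and Myd88 1.09 and 0.895 times. The 2 receptors that form a pair, Tlr1 and Tlr2, thus lay on opposite sides in the same mice, as did Nod1 and Nod2.

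**Figure D3:**
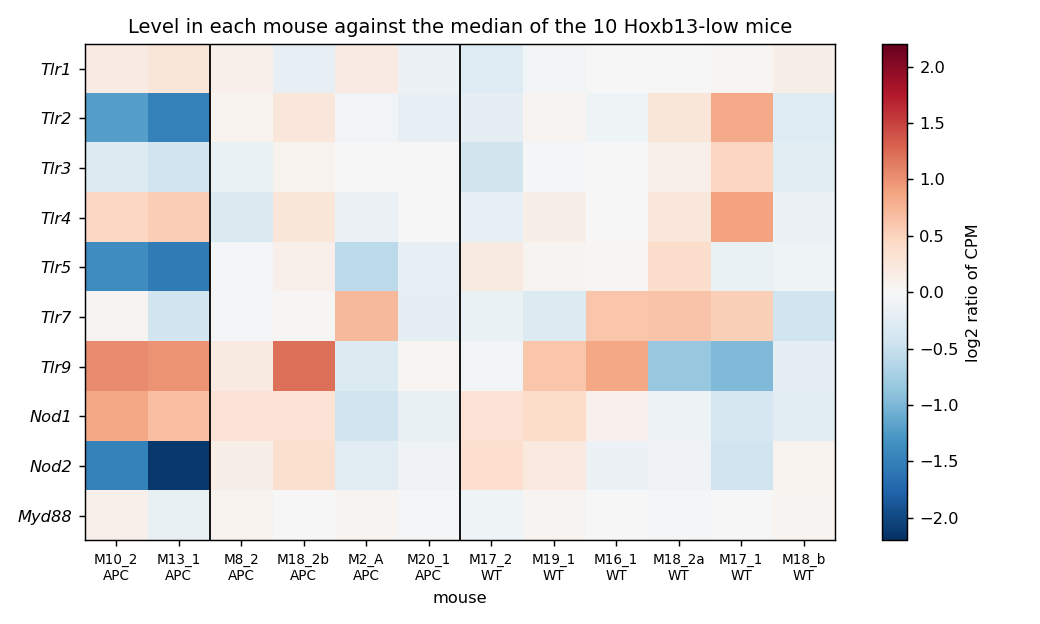
log2 ratio of CPM to the median of the 10 mice other than M10_2 and M13_1, for each gene (rows) in each mouse (columns, APC Min/+ to the left of WT), with red above and blue below the median. The deepest blue cells, for Tlr2, Tlr5 and Nod2, fall in the first 2 columns, and the mouse M17_1 is red for Tlr2, Tlr3 and Tlr4.

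Within the 10 mice, in which Hoxb13 ran from 0 to 0.744 CPM, a slope on log2(Hoxb13 CPM + 0.1) with genotype as a term was fitted over 19978 genes. None of the 10 members, and 0% of all genes, had an adjusted p under 0.05 by edgeR (quasi-likelihood F-test, Benjamini-Hochberg adjusted). At an unadjusted p under 0.05 there were 2 members, against 12.5% of all genes (2490 genes). Nod1 had a slope of 0.20 per log2 unit (SE 0.07, unadjusted p = 0.0167, adjusted p = 0.371), and Tlr5 a slope of 0.14 (SE 0.06, unadjusted p = 0.0423, adjusted p = 0.392). The Nod1 slope has the sign of its position in M10_2 and M13_1. The Tlr5 slope has the opposite sign, since Tlr5 was lowest in those 2 mice. Without M8_2 and M19_1, the 2 mice farthest in Hoxb13, the slopes were 0.21 for Nod1 (unadjusted p = 0.160) and 0.30 for Tlr5 (unadjusted p = 0.00828). With no genotype term they were 0.19 for Nod1 (unadjusted p = 0.0182) and 0.098 for Tlr5 (unadjusted p = 0.172), and with 0.01 in place of 0.1 added to Hoxb13 they were 0.099 (unadjusted p = 0.00873) and 0.073 (unadjusted p = 0.0113). Hoxb13 in these mice rests on few counts, and 4 of the 10 had none.

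**Figure D4:**
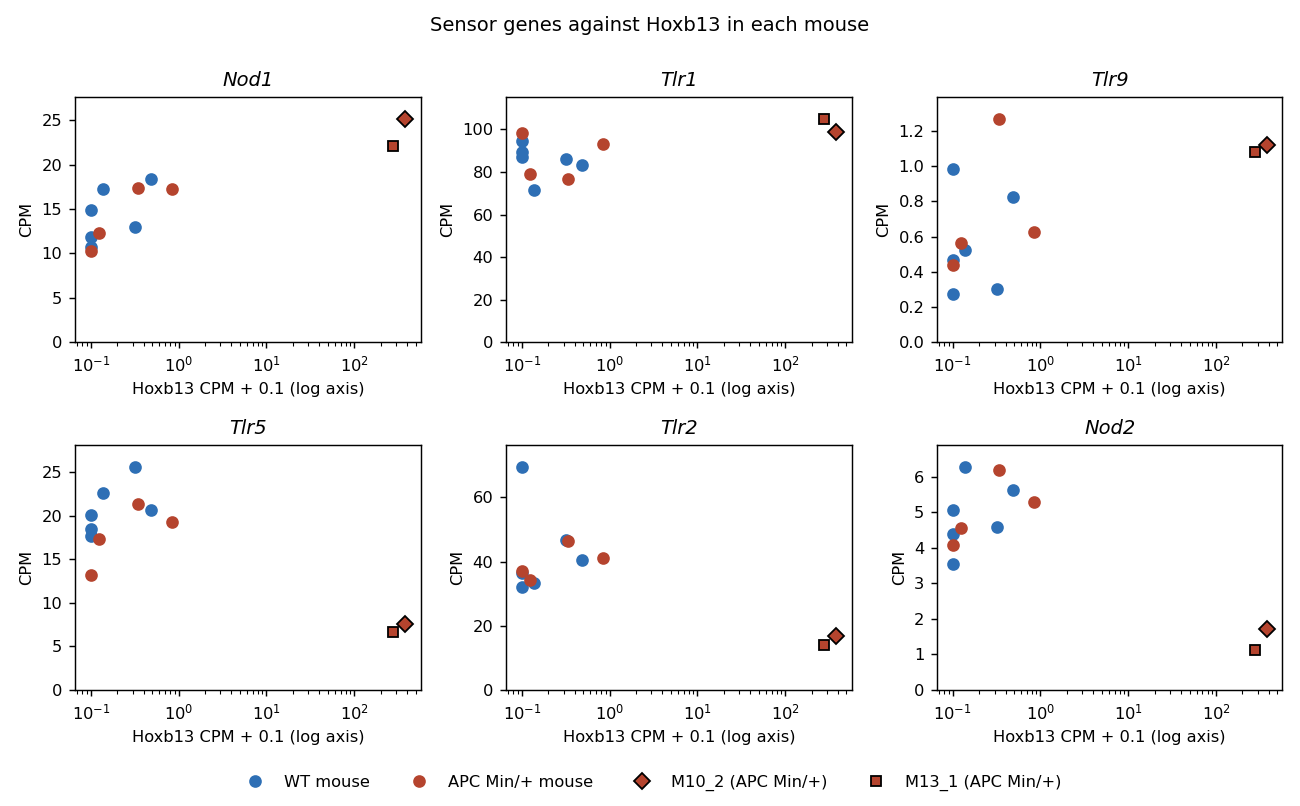
CPM of 6 genes (vertical axes, from 0) against Hoxb13 CPM plus 0.1 (horizontal log axis) in 6 WT and 6 APC Min/+ mice, with M10_2 (diamond) and M13_1 (square) marked. The mice fall into 2 and 10 with no mouse between 0.744 and 274.7 CPM of Hoxb13, so no line was drawn.

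Levels of cell type markers were set beside the members, since each receptor is used by some cells and not others. Epithelial markers were abundant in all mice, with Epcam at 1239 to 1624 CPM. So were smooth muscle markers, whose 5 genes summed to 3773 to 5721 CPM although the label reads mucosa. The paper's methods describe sections of the proximal colon and name no step that separates mucosa from muscle. In M10_2 and M13_1, 2 of 7 epithelial markers were below the other 10 mice (Car1 and Krt20) and 1 above (Cdh1). There, 4 of 5 T cell and 4 of 4 adipocyte markers were below, and 2 of 5 smooth muscle markers above (Des and Cnn1). Jchain (1 of 4 plasma cell markers) and S100b (1 of 4 enteric glia markers) were also below. Pax5 (1 of 7 B cell markers) and Ly6g (1 of 6 neutrophil markers) were above. So were Cox6a2, too low to test, and Pacsin1 (2 of 5 plasmacytoid dendritic cell markers). Over all genes tested, the shares were 11.8% above and 12.2% below in both mice. Adipocyte markers summed to 3.46 and 8.22 CPM in these 2 mice against 31.3 to 226.8 CPM, and T cell markers to 3.99 and 4.72 CPM against 5.72 to 10.19 CPM. The 9 macrophage markers were not outside in both mice, with sums of 373.5 and 223.5 CPM in M10_2 and M13_1 against 278.3 to 510.4 CPM. The 7 B cell markers summed to 55.6 CPM in M13_1, 6.64 CPM in M10_2 and 1.49 to 11.6 CPM in the others. Their part in the values of Tlr2, Tlr5, Nod1 and Nod2 was not tested.

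Tlr7 was highest in M2_A, M18_2a, M16_1 and M17_1 (4.81 CPM). The macrophage sum was highest in M2_A (510.4 CPM) and M16_1 (504.7 CPM), with M10_2 at 373.5 CPM, M18_2a at 369.6 CPM and M17_1 at 303.5 CPM. The relation of Tlr7 to these markers was not tested. Tlr9 was at 1.08 CPM in M13_1, where the B cell sum was 55.6 CPM, but was higher in M18_2b, where that sum was 2.90 CPM. Of the plasmacytoid dendritic cell list, the defining marker Siglech was at 0.613 to 2.07 CPM in all mice, and the sum of that list was almost wholly Klk1. Conventional dendritic cell markers summed to 5.99 to 13.9 CPM, fibroblast markers to 842.3 to 1457 CPM, endothelial markers to 62.8 to 124.8 CPM, enteric glia markers to 15.2 to 28.4 CPM and plasma cell markers to 203.1 to 919.6 CPM. Neutrophil S100a8 and S100a9 were at most 0.313 CPM. The mouse M17_1, highest for Tlr2, Tlr3 and Tlr4, had the lowest fibroblast and endothelial sums and the highest T cell sum (10.19 CPM). Its extreme values were not limited to these receptors, and it was also lowest for Tlr9. Among the pathway genes listed below, M17_1 was lowest for Tnip1, Relb, Irf5, Ticam1 and others. It was highest for Ikbke, Irak3, Tbk1, Pglyrp1 and others. Within the fibroblast list, Col1a1 (20.07 CPM) and Col1a2 (60.92 CPM) were lowest in M17_1. Dcn (561 CPM), Lum (126.2 CPM) and Pdgfra (74.2 CPM) were not, nor was the endothelial marker Pecam1 (36.19 CPM). The epithelial markers Cdh1, Krt8 and Vil1 were also lowest in M17_1, while Epcam, Krt20, Lgals4 and Car1 were not. The part of these markers in its receptor values was not tested.

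Of 77 other genes of the same pathways, 73 were tested and 0 passed the adjusted p and the 2-fold mark. At an unadjusted p under 0.05 there were 2 with a positive and 4 with a negative log2 fold change, beside 5.27% of all genes, and the median over the list was 0.01. In M10_2 and M13_1 both, 9 lay above and 8 below the other 10 mice, again beside 11.8% and 12.2% of all genes.

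The other Toll-like receptors were low, with the highest medians at 1.03 RPKM for Tlr6 and 0.797 RPKM for Tlr13, and 0 of 5 lay outside in both mice. Among co-receptors and chaperones, Cd14, which hands lipopolysaccharide to Tlr4, was at 30.5 and 23.6 CPM in M10_2 and M13_1, above the range of 13.3 to 17.8 CPM in the others. Cd36, a co-receptor of Tlr2, was at 29.1 and 26.9 CPM, below the range of 31.6 to 176.9 CPM. The adipocyte marker sum was also below the others in these 2 mice. Like Cd36, that sum was highest in M2_A (226.8 CPM), and the relation of Cd36 to it was not tested. Hsp90b1, the chaperone that folds most of these receptors, at a median of 126.0 RPKM, and Unc93b1, which carries the endosomal receptors, at 14.9 RPKM, were the most abundant of the group, and their log2 fold changes were -0.07 (SE 0.13) and -0.0036 (SE 0.12). Of the adaptors, Tirap, which brings Myd88 to Tlr2 and Tlr4, was at 38.7 and 33.4 CPM in M10_2 and M13_1 against 18.98 to 27.5 CPM. Ticam1, the adaptor of Tlr3, was the most abundant adaptor at 12.5 RPKM and was not outside. Ticam2, which links Tlr4 to Ticam1, was at 1.36 and 0.828 CPM against 0.276 to 0.615 CPM and had a log2 fold change of 0.70 (SE 0.32, unadjusted p = 0.0449), which was 0.19 (SE 0.25) without the 2 mice.

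Among kinases and ubiquitin ligases, Ikbke, a kinase of interferon regulatory factors, was the only listed gene whose genotypes did not overlap. Of all genes tested, 0.0443% lay wholly above WT in APC Min/+ and 0.0739% wholly below. Ikbke was at 42.1, 47.1 and 51.6 CPM in APC Min/+ mice and 51.7, 57.0 and 68.2 CPM in WT mice. For Ikbke the log2 fold change was -0.29 (SE 0.09, unadjusted p = 0.00611, adjusted p = 0.908, edgeR with Benjamini-Hochberg adjustment), and -0.27 (SE 0.10, unadjusted p = 0.0211) without M10_2 and M13_1, but the gap between the groups was 51.6 to 51.7 CPM. Traf6, the ligase downstream of Myd88, had a log2 fold change of -0.19 (SE 0.09, unadjusted p = 0.0471), which was -0.14 (SE 0.10, unadjusted p = 0.190) without the 2 mice, and was at 37.4 and 38.8 CPM in them against 42.1 to 55.0 CPM. Chuk, a subunit of the IkB kinase, and Tbk1, the kinase of Irf3, were also below in both mice, and Tab1, a partner of the kinase Map3k7, was above, at 31.2 and 26.4 CPM against 19.95 to 25.7 CPM. In Nod signalling, Birc3, a ubiquitin ligase, was at 82.1 and 91.3 CPM in the 2 mice against 36.0 to 49.4 CPM. Erbin, which binds Nod2, was at 584.2 and 655.7 CPM against 693.7 to 971.4 CPM. Xiap, a ligase required downstream of Nod2, was the second most abundant of that group at 23.1 RPKM, with M13_1 inside the range of the others.

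Of the negative regulators, Tnfaip3, the NF-kB inhibitor A20, was at 86.7 and 85.3 CPM in M10_2 and M13_1 against 25.2 to 46.8 CPM. Its log2 fold change of 0.70 (SE 0.31, unadjusted p = 0.0382) was 0.06 (SE 0.16) without those mice. Its partner Tnip1 was at 113.3 and 106.6 CPM against 23.9 to 98.6 CPM. Irak3, an inhibitor of the Irak kinases, had a log2 fold change of -0.37 (SE 0.17, unadjusted p = 0.0434), which was -0.27 (SE 0.18, unadjusted p = 0.167) without the 2 mice. Nfkbia, the NF-kB inhibitor that NF-kB itself induces, had one of 0.24 (SE 0.12, unadjusted p = 0.0643), which was 0.34 (SE 0.11, unadjusted p = 0.0114) without them. Of the transcription factors, Irf7 was at 35.4 and 30.6 CPM in M10_2 and M13_1 against 107.0 to 170.8 CPM in the others. Relb, at 40.7 and 37.7 CPM against 18.21 to 37.3 CPM, and Irf5, at 6.78 and 6.04 CPM against 3.22 to 5.71 CPM, were above, while Irf3, at a median of 17.23 RPKM, was not outside in both.

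Among inflammasome genes, Nlrc4, the partner of the Naip sensors of flagellin, was at 46.1 and 46.0 CPM in the 2 mice against 51.3 to 69.9 CPM, and Pycard, the adaptor, at 96.0 and 81.9 CPM against 99.6 to 138.6 CPM. Casp1, at a median of 137.7 RPKM, was the most abundant of the group and was not outside in both. Of the peptidoglycan recognition proteins, Pglyrp1 was at 93.6 RPKM and Pglyrp2 at 0.232 RPKM, and Pglyrp3 and Pglyrp4 were too low to test. Of the target cytokines, Il10, with 2 to 24 counts a library, had a log2 fold change of -1.08 (SE 0.36, unadjusted p = 0.0101, adjusted p = 0.908, edgeR with Benjamini-Hochberg adjustment), and -0.89 (SE 0.37, unadjusted p = 0.0318) without M10_2 and M13_1. Il6 and Cxcl2 were too low to test. The highest of the group were Ccl20 at 0.899 RPKM and Il1b at 0.454 RPKM, with log2 fold changes of 0.72 (SE 0.35, unadjusted p = 0.0586) and -0.10 (SE 0.23). Without the 2 mice these were 0.24 (SE 0.28, unadjusted p = 0.410) and -0.27 (SE 0.25).

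Finally, for each member the 3 genes with the highest Pearson r of log2(CPM + 0.1) over the 12 mice were listed, among 14897 genes with a mean of at least 1 CPM. These r values describe 12 mice in which M10_2 and M13_1 set much of the spread, so r over the other 10 mice is given beside them. Tlr5 was closest to Ppara, the fatty acid sensor (r = 0.984 over 12 mice and 0.926 over 10), to Apob, the apolipoprotein (0.979 and 0.878), and to ENSMUSG00000085942.1 (0.975 and 0.886). Nod2 was closest to Rtn4r (0.984 and 0.924), Srgap3 (0.984 and 0.881) and B4galnt1 (0.981 and 0.825), and Tlr2 to Arhgap20 (0.971 and 0.876), Slc17a9 (0.971 and 0.875) and Krt222 (0.970 and 0.863). These 9 genes were all below the other 10 mice in both M10_2 and M13_1. Nod1 was closest to Wipi1 (0.982 and 0.963), Sgsm2 (0.974 and 0.965) and Pdgfrb (0.973 and 0.955), which were all above the other 10 in both.

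Of the genes closest to the remaining members, only Phf11d and Samd9l were outside the other 10 mice on 1 side in both M10_2 and M13_1, where they were lower. Tlr3 was closest to the interferon-induced gene Ifit1 (0.954 and 0.966), to Phf11d (0.944 and 0.930) and to Samd9l (0.943 and 0.933). Tlr4 was closest to Adgrg7 (0.963 and 0.972), Dpp4 (0.946 and 0.951) and Kansl1l (0.936 and 0.946). Tlr1 was closest to Haus8 (0.941 and 0.911), Gstm6 (0.918 and 0.886) and the mucin Muc3 (0.913 and 0.892). Tlr7 was closest to Hscb (0.925 and 0.918), Gpr34 (0.918 and 0.914) and Serpinb8 (0.911 and 0.900), and Tlr9 to Lrrc61 (0.903 and 0.879), Nop53 (0.885 and 0.868) and Nfkbie (0.878 and 0.842). Myd88, the least variable, had the lowest values, with Lrrc66 (0.826 and 0.828), Maea (0.797 and 0.610) and Narfl (0.792 and 0.695).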

How the data were processed

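Total RNA from 12 samples labelled as mucosa was sequenced by the study on Illumina instruments. Per the labels, the authors aligned reads to GRCm38.p2 with STAR 2.3.0 and counted them per Ensembl gene with featureCounts, and they deposited 1 table of raw counts and gene lengths a mouse. The annotation release, strand setting and treatment of multiply mapped reads are not given in the sources used here. Symbols were matched for 37607 of 38924 identifiers with a GENCODE annotation of GRCm38, and no 2 tables held identical values. Positions come from that annotation and promoters from RefSeq (GRCm38.p6).

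The 20311 genes that reached 10 counts in 3 or more mice were tested with edgeR 4.0.16 (R 4.3.3), TMM scaling, a quasi-likelihood test and Benjamini-Hochberg adjustment, and were called at an adjusted p under 0.05 and at least 2-fold. The SE is the log2 fold change divided by the root of F. RPKM used the deposited lengths. The mean log2 CPM of each member was also compared between genotypes with an exact two-sided permutation test. Alternatives were RLE scaling, no filter, filterByExpr, DESeq2 1.42.0, the likelihood ratio test, limma-voom (limma 3.58.1), each mouse left out, M10_2 and M13_1 left out, and Hoxb13 as a covariate, and for the slope no genotype term, another pseudocount and the 2 mice farthest in Hoxb13 left out. The steps were tested on simulated data.

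The members and lists were chosen with earlier results of these data known. All members were named. Of the listed pathway genes, those at an unadjusted p under 0.05, without overlap of the genotypes or outside the other 10 mice in both M10_2 and M13_1 were named, together with the 2 of highest RPKM in each role. Exceptions, named after their values were seen, are Ly6g and the marker genes. The study housed mice in groups with the genotypes apart, and the labels do not say which mice shared a litter or cage. The p-values treat the mice as independent and may be too small where mice shared either. One listed regional gene is not reported here.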

Additional observations from a re-analysis of the deposited data

Results flagged for a closer look

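Within each genotype, a mouse was noted when its gap to the nearest other, divided by the range of the 6, was above Dixon's critical value. Of 86 groups examined for the 10 sensors and the 33 named pathway genes, 7 on the CPM scale and 5 on the log2 scale passed it, where chance passes about 1 in 20. Tlr4 in the WT mouse M17_1 was at 39.9 CPM, with a ratio of 0.676. Tlr7 in the APC Min/+ mouse M2_A was at 5.46 CPM (0.671), and Cd36 in the same mouse at 176.9 CPM (0.760). Tnfaip3 was at 46.8 CPM in the WT mouse M18_b (0.701) and Pglyrp1 at 112.7 CPM in the WT mouse M17_1 (0.841). Il1b was at 1.33 CPM in the APC Min/+ mouse M10_2 (0.640) and Ccl20 at 3.998 CPM in the APC Min/+ mouse M13_1 (0.641).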

How the results depend on the processing

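No sensor was called under any setting run. All genes called numbered 0 in edgeR's quasi-likelihood test (1071 at an unadjusted p under 0.05), 27 in DESeq2 and 15 in the likelihood ratio test. Sensors at an unadjusted p under 0.05 numbered 0, and 1 (Tlr5) in the likelihood ratio test and 1 (Tlr5) in limma-voom. Leaving out 1 mouse at a time gave 0 to 1: Tlr5 without M8_2 or M18_2b, Tlr9 without M16_1. Listed pathway genes at that mark numbered 6, and 2 to 7 with 1 mouse left out (2 without M17_1, 3 without M10_2 and 3 without M13_1), 3 without both M10_2 and M13_1 and 3 with Hoxb13 as a covariate, while the share of all genes went from 5.27% to 1.59% and 1.69%. Signs turned for Nod1 (-0.0039 without both mice, -0.092 with the covariate) and Nod2 (0.033 and 0.061). With 1 mouse left out, the log2 fold change of Tlr4 ran from -0.12 to 0.15 and that of Myd88 from -0.014 to 0.041. The Hoxb13 slope turned for Tlr3 (0.012), Tlr4 (0.069) and Myd88 (-0.025) without the 2 mice farthest in Hoxb13. The causes were not tested. No paired analysis was possible because only 1 code stem, M18_2, occurs in both genotypes, and nothing says that it marks a shared origin. Scaling did not turn any sign, and the median of all genes moved by less than 0.1. Of the sensors, Tlr9 rests on the fewest counts, 28 in the lowest library.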

Other observations

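Ly6g, listed here as a neutrophil marker, reached 74.9 CPM in mouse M10_2 and 97.9 CPM in mouse M13_1 against 0 to 0.472 CPM in the other 10 mice, and was named after its values were seen. The other neutrophil markers did not move with it: S100a8 was at 0.0707 and 0.0663 CPM in the same mice, S100a9 at 0.0808 and 0.110 CPM, and Csf3r at 1.37 and 0.420 CPM. Car1, a carbonic anhydrase of colonocytes, was at 965.5 and 2539 CPM in M10_2 and M13_1 against 14620 to 32560 CPM in the others, while Epcam was at 1362 and 1284 CPM, inside the range of the other 10 mice, 1239 to 1624 CPM.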
